A study of Mus musculus with 4 samples.

Results

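Invariant natural killer T (iNKT) cells were identified in the liver by their T cell receptor: a barcode was a member when it carried an α chain contig, the assembled sequence of 1 receptor transcript, that joined TRAV11 to TRAJ18. Of 5782 cells with an α chain (TRA) contig, 118 were members, 57 of them from the WT-labelled library and 61 from the dKO-labelled one, out of 28018 cells that had over 200 genes and under 5% mitochondrial UMIs. The remaining 5664 cells with a TRA contig, 2504 in WT and 3160 in dKO, were the comparison group. The choice used no gene expression, and all 118 members passed both filters.

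CD4 T cells were sorted from the livers of mice fed a choline-deficient diet with 60 kcal% fat and 0.1% methionine, which induces steatohepatitis. WT mice were compared with mice lacking Nr4a1 and Nr4a2 in T cells (dKO, floxed alleles of both genes deleted by Cd4-Cre), and cells of 2 mice were pooled for each genotype. Gene expression and T cell receptors were read from the same cells with droplet-based 5′ sequencing. There was 1 library per genotype and assay, so no test of genotype was possible, mice within a pool could not be separated, and every interval given here is a 95% interval that covers counting error only.

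iNKT cells are innate-like T cells whose semi-invariant receptor recognises glycolipids presented by CD1d rather than peptides on MHC molecules. They are abundant in the mouse liver, depend on the transcription factor PLZF, encoded by Zbtb16, and release cytokines quickly after activation. Subsets are described by the helper programme they resemble: NKT1 (T-bet, IFN-γ), NKT2 (GATA3, IL-4) and NKT17 (IL-17). Cd4-Cre acts from the stage at which thymocytes carry both CD4 and CD8, a stage that iNKT cells also pass through.

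The α chain junctions are shown because the rule fixed the V and J segments but not the sequence between them. All 118 CDR3α were 45 bases long and encoded 15 residues. The 6 nucleotide sequences that were found in more than 1 cell are given from 5′ to 3′, with the fourth codon, which lies at the V-J junction, in capitals.
CDR3α in 40 cells (16 WT, 24 dKO): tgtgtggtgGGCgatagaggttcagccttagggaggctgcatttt
CDR3α in 31 cells (18 WT, 13 dKO): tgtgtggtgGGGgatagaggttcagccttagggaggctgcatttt
CDR3α in 21 cells (10 WT, 11 dKO): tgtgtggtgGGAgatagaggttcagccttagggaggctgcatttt
CDR3α in 11 cells (5 WT, 6 dKO): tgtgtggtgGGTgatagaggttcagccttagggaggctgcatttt
CDR3α in 3 cells (0 WT, 3 dKO): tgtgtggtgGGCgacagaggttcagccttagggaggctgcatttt
CDR3α in 2 cells (1 WT, 1 dKO): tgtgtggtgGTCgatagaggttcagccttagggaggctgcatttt

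The first 5 of these sequences encoded the same residues. Together with 2 further sequences, each in 1 cell, they accounted for 108 of 118 cells, 50 of 57 in WT (87.7%, 76.3 to 94.9) and 58 of 61 in dKO (95.1%, 86.3 to 99.0). Thus the members shared 1 protein junction that was written by several DNA sequences, most of them differing in the last base of the fourth codon. Among the WT cells with these residues the codon was GGG in 36.0% (22.9 to 50.8), GGC in 32.0% (19.5 to 46.7), GGA in 22.0% and GGT in 10.0%. In the dKO cells it was GGC in 48.3% (35.0 to 61.8), GGG in 22.4% (12.5 to 35.3), GGA in 19.0% and GGT in 10.3%. The intervals of each codon overlapped between the libraries. Of 16 nucleotide sequences in all, 5 were found in both libraries, and 105 of 118 cells carried 1 of these 5.

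The germline segments are shown for comparison with the junction, as read from the mouse GRCm38 genome annotated by GENCODE M21. Trav11 lies on the plus strand at chr14:53519303-53519859 and Traj18 on the plus strand at chr14:54200777-54200842.
Trav11, 3′ end from the conserved cysteine codon: tgtgtggtgggcg
Traj18, whole segment: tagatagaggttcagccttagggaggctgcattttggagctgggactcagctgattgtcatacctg

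The GGC sequence of 40 cells consisted of 13 bases that matched Trav11 and 32 that matched Traj18, with no base between them. The GGA sequence of 21 cells was likewise covered by 11 V and 34 J bases. The GGG and GGT sequences each needed 1 base outside both segments. Over all members, 62 of 118 cells (52.5%) had a junction that needed no added base and 42 (35.6%) needed 1. These are minimum numbers, since an added base can match a segment by chance. A second TRA chain was found in 6 of 57 WT members (10.5%) and 1 of 61 dKO members (1.64%), against 5.39% and 2.50% of comparison cells. A second TRB chain was found in 7 (12.3%) and 1 (1.64%), against 5.91% and 2.72%. The invariant contig had a median of 2 UMIs in WT members and 4 in dKO members. It was the leading TRA contig in 54 of 57 and 61 of 61. The part of these differences in the ratios between the libraries was not tested. The TRAV11D segment was named in 0 of 118 members.

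In contrast to the α chain, the β chains were diverse but drew on few V segments. In WT, 54 members had a β chain (TRB) contig and their 54 CDR3β sequences were all distinct. In dKO, 57 had one and 56 were distinct, the repeated sequence being a TRBV29 chain in 2 cells. No CDR3β was shared between the 2 libraries. Among the comparison cells, 47.6% in WT and 61.0% in dKO shared their CDR3β with another cell, and the largest such groups held 70 and 281 cells.

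TRBV13-2, which encodes Vβ8.2, was used by 30 of 54 WT members (55.6%, 41.4 to 69.1) and by 19 of 57 dKO members (33.3%, 21.4 to 47.1). It was used by 12.4% and 8.55% of the comparison cells, counted per cell and not per clone, so that large clones weigh more. The contig tables gave most of these chains the joint name TRBV12-2+TRBV13-2, which was counted as TRBV13-2 in every group. TRBV29, which encodes Vβ7, was used by 13.0% of WT members (5.37 to 24.9) and 24.6% of dKO members (14.1 to 37.8), against 1.41% and 4.44% of comparison cells. TRBV1, which encodes Vβ2, was used by 11.1% and 10.5%, close to the 9.29% and 9.14% of the comparison cells. TRBV13-1 was used by 7.41% of WT members (2.06 to 17.9) and 12.3% of dKO members (5.08 to 23.7). These shares were no higher than the 11.2% and 19.3% of the comparison cells. Taken as a set, the TRBV13 family, TRBV29 and TRBV1 made up 87.0% (75.1 to 94.6) and 89.5% (78.5 to 96.0) of the members' β chains, and 39.6% and 46.6% of the others. TRBV13-3 was found in 0 of 54 WT members, which allows a share of up to 5.56%, and in 5 of 57 dKO members (8.77%, 2.91 to 19.3).

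**Figure D1:**
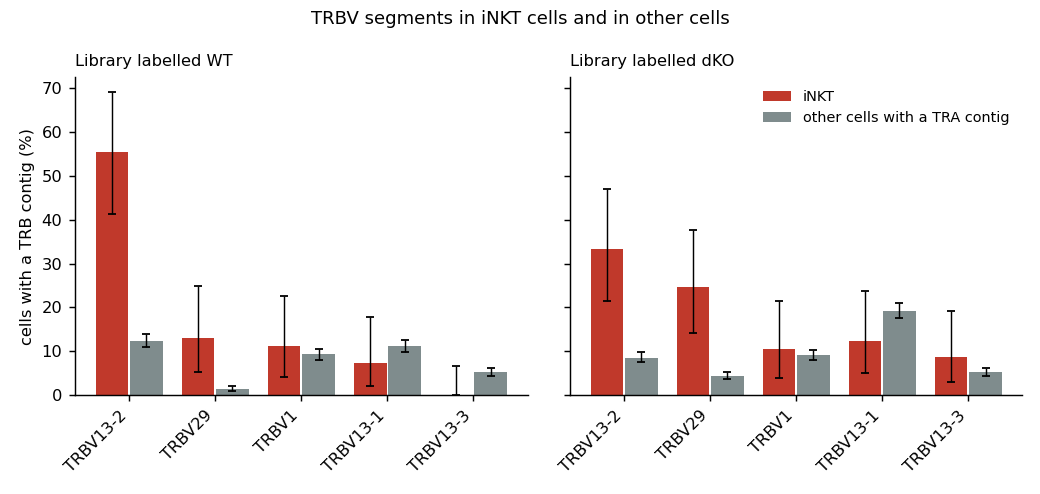
Share of cells with a TRB contig (y axis, percent) that used each of 5 TRBV segments (x axis), in members (red) and in other cells with a TRA contig (grey) of each library; error bars are exact 95% binomial intervals. TRBV13-2 stood at 55.6% and 33.3% of the members against 12.4% and 8.55% of the other cells.

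The members made up 2.23% (1.69 to 2.87) of WT and 1.89% (1.45 to 2.43) of dKO cells with a TRA contig. The difference, dKO minus WT, was -0.33 percentage points, with a counting interval of -1.10 to 0.40 that included no difference. With 1 library per genotype, a difference in frequency between the genotypes could not be tested. The order turned with invariant contigs of at least 3 UMIs, at 1.03% in WT and 1.47% in dKO, and without cells that carried plasmacytoid or myeloid UMIs, at 1.99% and 2.00%. TRA contigs were found in 24.3% of filtered WT cells and 18.4% of dKO cells, and cells without a contig could not be assigned. In comparison, the TRAV1-TRAJ33 chain of mucosal-associated invariant T cells was found in 3 WT cells and 1 dKO cell.

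The members held 173109 UMIs in WT (median 2493 per cell) and 149391 in dKO (median 2080), and the comparison cells 7469813 (median 2350) and 7772220 (median 1809). Levels are given as CPM, the UMIs of a gene per 1e6 UMIs summed over a group of cells. A gene without a UMI in the members could thus have a level of up to 17.3 CPM in WT and 20.1 CPM in dKO. Of all filtered cell barcodes, 242 occurred in both libraries. They included 2 barcodes of WT members, and no barcode was a member in both. Nr4a1 and Nr4a2 were not lower in the library labelled dKO, in members or in comparison cells (values below), so groups are called by the labels of their libraries. The data count UMIs per gene and not per exon, and did not show whether the deleted part was transcribed.

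UMIs of genes on the lists of other cell types were present in the members, and which cells they came from was not tested. The 6 plasmacytoid dendritic genes summed to 716 CPM in WT members and 323 CPM in WT comparison cells, and to 750 and 738 CPM in dKO. Siglech, a lectin of plasmacytoid dendritic cells, was found in 4 members of each library. The 10 myeloid genes summed to 514 and 568 CPM in WT and to 281 and 1041 CPM in dKO. Csf1r, the receptor that defines macrophages, was at 0 in the members of both libraries. Its level in the comparison cells was 4.42 CPM in WT and 9.14 CPM in dKO, where the depth of the members could show no difference. The 6 B cell genes summed to 318 and 208 CPM in WT and 114 and 193 CPM in dKO. The 7 hepatocyte genes summed to 0 CPM in WT members and 6.69 CPM in dKO members, and the 6 endothelial and stellate genes to 92.4 and 13.4 CPM. Cd8a was at 0 UMIs in WT and 2 UMIs, in 1 cell, in dKO. The 3 γδ T cell genes found summed to 121 and 14.5 CPM in WT and to 93.7 and 9.14 CPM in dKO. All of these member UMIs were of the γ chain segment Trgv2, 21 UMIs in WT and 14 in dKO, while Trdc, the δ chain constant gene, was at 0 in both. Ncr1, which marks NK cells and group 1 innate lymphoid cells, was also at 0. The 8 genes of NK cells and group 1 innate lymphoid cells summed to 121 and 36.8 CPM in WT and 100.4 and 36.4 CPM in dKO. Some of them, such as Klre1, Prf1 and Gzmc, are also on the killer receptor or cytotoxic lists used below. The part of these UMIs in the results was not tested, apart from values without the cells that carried at least 2 plasmacytoid or myeloid UMIs, which are given where they differ.

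The RNA of the members carried the defining marks of iNKT cells. Zbtb16, on chr9:48654297-48836222 of the minus strand, was at 277 CPM (204 to 368) in WT members and 7.63 CPM in WT comparison cells, a 36.3-fold difference. In dKO it was at 181 CPM (119 to 263) and 8.36 CPM, a 21.6-fold difference. Hence PLZF mRNA marked the members in both libraries although the rule did not use it.

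Xcl1, on chr1:164931644-164935527 of the minus strand and encoding the chemokine XCL1, was at 763 CPM (638 to 904) against 159 CPM in WT. In dKO it was at 589 CPM (472 to 726) against 43.0 CPM. Klrb1c, on chr6:128778485-128789215 of the minus strand, encodes the NK1.1 receptor. It was at 52.0 CPM (23.8 to 98.7) against 7.10 CPM in WT, from 9 UMIs, and at 134 CPM (81.8 to 207) against 3.47 CPM in dKO, from 20 UMIs. All 3 markers were therefore higher in the members in each library, with ratio intervals that left out no difference.

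Single cells showed these genes incompletely. At least 1 of the 3 markers had a UMI in 43 of 57 WT members and 49 of 61 dKO members, against 325 of 2504 and 116 of 3160 comparison cells. Zbtb16 had a UMI in 27 WT members (47.4%, 34.0 to 61.0) and 21 dKO members (34.4%, 22.7 to 47.7), and in 1.24% and 1.20% of comparison cells. After each cell was thinned to 1000 UMIs, the shares were 16.1% and 13.1% of members and 0.460% and 0.536% of comparison cells. Cells without a contig that carried at least 10 myeloid UMIs were also examined. A Zbtb16 UMI was found in 1.23% of them in WT (median 2811 UMIs) and 0.662% in dKO (median 3586 UMIs). Cd3e UMIs were found in 28.6% and 22.9% of them, so they held T cell RNA and are no clean background. The members lay above these shares, while the comparison cells lay close to theirs in WT and above theirs in dKO. Of comparison cells with a Zbtb16 UMI, 15 of 31 in WT and 20 of 38 in dKO also had an Xcl1 UMI. Among all comparison cells, Xcl1 was found in 12.2% in WT and 3.04% in dKO. What these Zbtb16-positive comparison cells are was not tested.

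Over all genes, 2905 had at least 50 CPM in each library as the mean of members and comparison cells, T cell receptor segments being left out because the rule acts on them. Of these, 42 genes (1.45%) were over 2-fold higher in the members in both libraries and 54 (1.86%) were over 2-fold lower, and 41 and 51 of them had counting intervals that left out no difference in both. No gene passed 2-fold in opposite directions in the 2 libraries. The median log2 ratio of all these genes was -0.02 in WT and -0.06 in dKO. Genes without a UMI in the members entered these ratios and the medians of gene lists at 3 counts. Of the 42 higher genes, 23 were under 50 CPM in the comparison cells of at least 1 library, and of the 54 lower genes 34 were under 50 CPM in the members of at least 1 library. Such genes reached the minimum only through the group in which they were high, so counts and medians of gene lists are descriptions of the genes measured and not of whole lists.

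**Figure D2:**
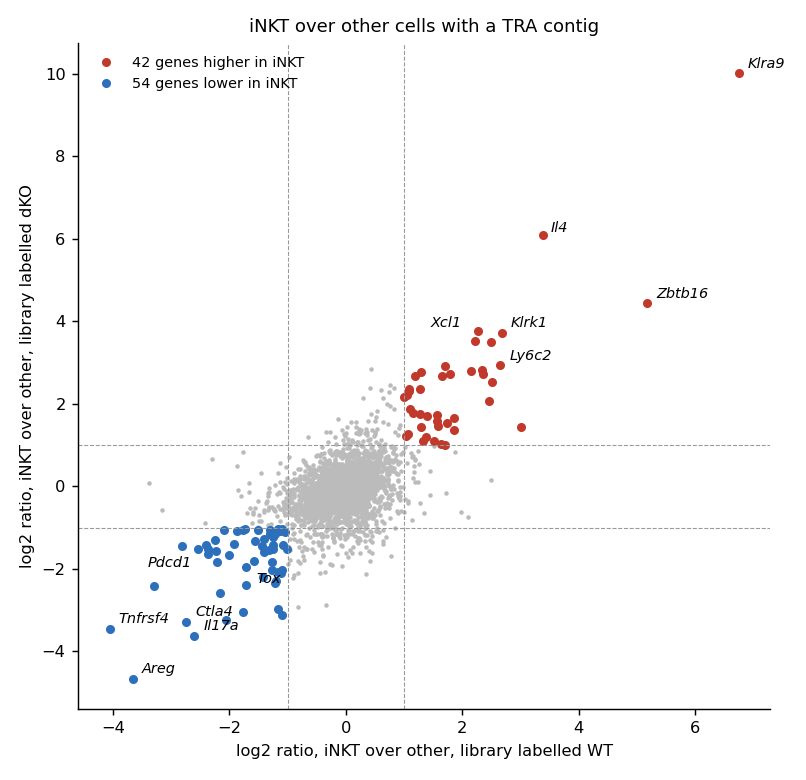
Log2 ratio of CPM in members over other cells with a TRA contig, library labelled WT (x axis) against library labelled dKO (y axis), for 2905 genes; dashed lines mark 2-fold, red and blue points the 42 genes higher and 54 genes lower in both. Klra9, Zbtb16 and Il4 lie farthest to the upper right, and Tnfrsf4 and Areg farthest to the lower left. Genes with 0 UMIs in the members, such as Il17a, are drawn at 3 counts.

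Genes of the natural killer receptor families stood at the upper end. Klra9, a Ly49 family receptor gene on chr6:130178675-130193112, was at 144 CPM (93.5 to 213) in WT members, from 25 UMIs in 9 cells, and at 1.34 CPM in the comparison cells. In dKO it was at 134 CPM (81.8 to 207), from 20 UMIs in 12 cells, against 1 UMI in 3160 comparison cells, a log2 ratio of 10.02 (7.38 to 15.40). Ly49 genes are close paralogs, so the member of the family that gave these reads is uncertain. Klrk1, which encodes the activating receptor NKG2D, was at 289 against 45.1 CPM in WT and 174 against 13.1 CPM in dKO. Klrd1, which encodes CD94, was at 289 against 56.5 CPM and 241 against 36.7 CPM. These were the 3 genes of the 19 on the killer receptor list that reached the 50 CPM minimum in both libraries. All 3 reached it only through the members in at least 1 library. The minimum thus favoured genes that are higher in the members, and their count is no result about the list. Of all 19 genes, 12 had a higher CPM in the members in both libraries and 4 a lower one, 3 of these with 0 UMIs in the members. Klrc1, which encodes the CD94 partner NKG2A, was at 63.5 against 17.1 CPM in WT and at 154 against 5.02 CPM in dKO. Klrg1, an inhibitory receptor gene of terminal effector cells, went the other way, with 0 UMIs against 46.7 CPM in WT, at least 2.70-fold lower, and 40.2 against 311 CPM in dKO, a log2 ratio of -2.95 (-4.40 to -1.83).

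Of 20 NKT1 genes, 14 reached the minimum in both libraries. Of these, 6 were over 2-fold higher in both, beside 1.45% of all genes, and 0 lower, but 5 of the 6, all except Txk, reached the minimum only through the members in at least 1 library. They were Klra9, Klrd1, Klrk1, Xcl1, Il12rb2 and Txk, and the list's median log2 ratio was 1.20 in WT and 2.06 in dKO. Il12rb2, a chain of the IL-12 receptor, was at 393 CPM (305 to 498) against 84.5 CPM in WT and at 328 CPM (243 to 434) against 28.6 CPM in dKO. Txk, a Tec family kinase, was at 266 against 89.3 CPM and 181 against 54.6 CPM. In contrast, Tbx21, which encodes T-bet, was at 121 CPM (75.1 to 185) against 107 CPM in WT, a log2 ratio of 0.17 (-0.53 to 0.80), and at 187 CPM (125 to 271) against 69.5 CPM in dKO, a log2 ratio of 1.43 (0.83 to 1.98). Eomes had 0 UMIs in the members of both libraries. The comparison cells lay at 5.89 CPM in WT and 18.3 CPM in dKO, where the depth of the members could show no difference. Il2rb, a chain of the IL-15 receptor, had log2 ratios of 0.64 (0.31 to 0.95) and 0.20 (-0.13 to 0.51).

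Of 9 measured cytokine and TNF ligand genes, Il4 was over 2-fold higher in both libraries and Areg, Il17a and Tnfsf8 were lower. This stands beside 1.45% and 1.86% of all genes, and all 4 were under 50 CPM in the lower group of at least 1 library. Il4, the cytokine of the type 2 programme on chr11:53602982-53618669, was at 162 CPM (107 to 234) in WT members, from 28 UMIs in 14 cells, against 15.4 CPM. In dKO it was at 254 CPM (180 to 349), from 38 UMIs in 20 cells, against 3.73 CPM. Ifng, the cytokine of the type 1 programme, was at 387 CPM (300 to 492) against 228 CPM in WT, a log2 ratio of 0.76 (0.39 to 1.12), and at 308 CPM (225 to 411) against 56.0 CPM in dKO, a log2 ratio of 2.46 (1.99 to 2.90). Il17a had 0 UMIs in the members of both libraries, at least 6.06-fold below the 105 CPM of the WT comparison cells and at least 12.3-fold below the 247 CPM of the dKO comparison cells. Il13 and Il21 also had 0 UMIs, where the comparison cells lay under 5 CPM and the depth of the members could show no difference.

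Ifng and Il4 UMIs were found in the same cell in 7 of 57 WT members, Ifng without Il4 in 17, Il4 without Ifng in 7 and neither in 26. In dKO both were found in 6 of 61, Ifng alone in 11, Il4 alone in 14 and neither in 30. After thinning to 1000 UMIs both were found in 4 of 56 and 4 of 61 members. Among the comparison cells both were found in 19 of 2504 and 5 of 3160 cells without thinning.

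**Figure D3:**
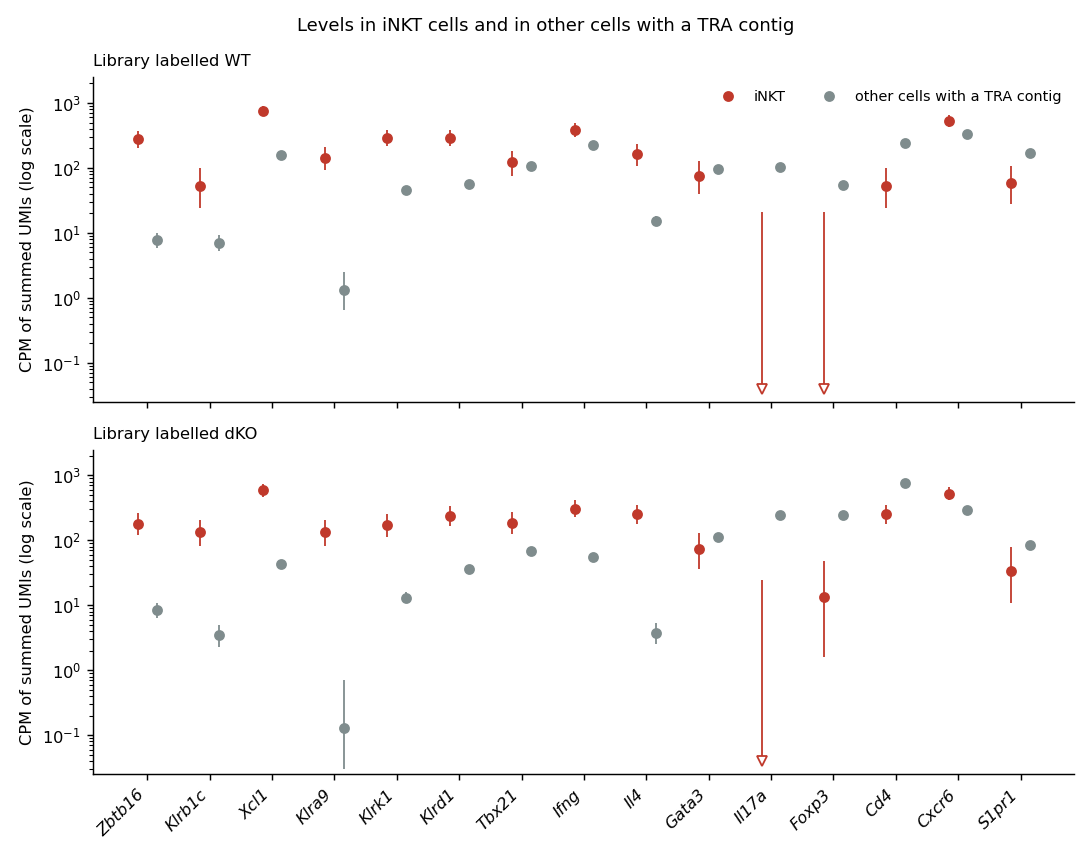
CPM of 15 genes (y axis, log scale) in members (red) and other cells with a TRA contig (grey) of each library; bars are exact 95% Poisson intervals and open triangles mark genes with 0 UMIs, drawn at the foot of the axis with their upper bound. Zbtb16, Klra9 and Il4 lie well above the grey points in both libraries, while Il17a is at 0 in the members of both.

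Of 7 measured NKT2 genes, 3 were over 2-fold higher in both libraries, Il4, Plac8 and Tmem64, beside 1.45% of all genes, and 0 lower, with medians of 1.06 and 0.50. Il4 reached the minimum only through the members. Plac8 was at 277 against 113 CPM and at 683 against 251 CPM. Gata3, the lineage factor of the type 2 programme, was at 75.1 CPM (40.0 to 128) against 96.0 CPM in WT and at 73.6 CPM (36.8 to 132) against 114 CPM in dKO, with ratio intervals that included no difference. Of 6 measured NKT17 genes, 0 were higher in both and Il17a, under 50 CPM in the members, was lower, beside 1.45% and 1.86% of all genes. The median of that list was 0.60 and 0.66, and its measured members other than Il17a were Cxcr6, Itgb3, Ramp1, Tmem176a and Tmem176b. The list of follicular helper and regulatory NKT genes had 2 measured genes. Of these, Pdcd1, under 50 CPM in WT members, was lower in both libraries, beside 1.86% of all genes. Il23r, a receptor chain of the type 17 programme, had 10 UMIs in 2 WT members and 0 in dKO.

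Among lineage factors, 0 of 12 measured genes on the SLAM and lineage list were higher, beside 1.45% of all genes. Only Tox was lower, beside 1.86% of all genes. Tox, a nuclear factor needed early in CD4 and iNKT development, was at 80.9 against 266 CPM in WT and at 107 against 413 CPM in dKO. The list's median was -0.14 in WT and -0.07 in dKO. Of 9 innate cytokine receptor genes measured, Il12rb2 was higher and 0 were lower, beside 1.45% and 1.86% of all genes. Il12rb2 was under 50 CPM in the comparison cells of at least 1 library. Il18r1, a chain of the IL-18 receptor, had log2 ratios of -0.41 (-1.07 to 0.18) and 0.35 (-0.32 to 0.94).

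Cytotoxic and chemokine genes were partly higher. Of 7 measured cytotoxic genes, Ctsw and Klrk1 were over 2-fold higher in both libraries, beside 1.45% of all genes, with list medians of 0.82 and 0.84. Klrk1 reached the minimum only through the members. Ctsw, encoding cathepsin W, was at 566 against 274 CPM and at 716 against 155 CPM. Nkg7, a granule protein gene, was at 797 against 452 CPM and 1272 against 717 CPM, log2 ratios of 0.82 and 0.83 that stayed under 2-fold. Gzmb, encoding granzyme B, had log2 ratios of 1.87 (1.37 to 2.34) in WT, where its 40 UMIs lay in 7 members, and 0.84 (0.44 to 1.22) in dKO. Ccl1 was counted as higher in both libraries, but its 23 UMIs in WT came from 1 cell and its 20 UMIs in dKO from 3. Ccl4, encoding the chemokine MIP-1β, was at 2392 CPM in WT members, in 9 cells, against 424 CPM, and at 1540 CPM in dKO members, in 10 cells, against 1385 CPM. The Ccl1 and Ccl4 UMIs of the members thus came from few cells, whereas Ccl5 was found in 43 WT and 52 dKO members. Ccl5 was not higher in the members than in the comparison cells. It was at 1306 against 1347 CPM in WT, a log2 ratio of -0.04 (-0.24 to 0.15). In dKO it was lower, at 3307 against 5165 CPM, a log2 ratio of -0.64 (-0.77 to -0.52).

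The remaining genes at the upper end were Ly6c2, Kcnq5, Ifitm10 and Lyst. Ly6c2, a Ly6 surface antigen gene, was at 878 against 139 CPM in WT and 1017 against 133 CPM in dKO. It was found in 31 WT and 40 dKO members. Kcnq5, a potassium channel gene, had log2 ratios of 2.51 (2.20 to 2.81) and 2.52 (2.16 to 2.87). Lyst, a regulator of lysosomal trafficking, had log2 ratios of 2.34 (2.01 to 2.66) and 2.81 (2.45 to 3.16). Ifitm10 had ratios of 2.50 (1.67 to 3.23) and 3.51 (2.75 to 4.20).

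Genes of regulatory and activated CD4 T cells stood at the lower end. Foxp3, the factor that defines regulatory T cells, had 0 UMIs in WT members, at least 3.17-fold below the 54.9 CPM of the comparison cells, and 2 UMIs in dKO members against 249 CPM, a log2 ratio of -4.22 (-7.26 to -2.36). Areg, encoding amphiregulin, had 2 UMIs in WT members against 145 CPM, a log2 ratio of -3.65 (-6.70 to -1.80), and 0 in dKO members, at least 25.3-fold below 508 CPM. Tnfrsf4, encoding the costimulatory receptor OX40, was at 17.3 against 288 CPM and at 127 against 1396 CPM. Ctla4, encoding the inhibitory receptor CTLA-4, was at 69.3 against 463 CPM and at 167 against 1633 CPM.

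Of 12 measured checkpoint and costimulatory receptor genes, 5 were over 2-fold lower in both libraries, Cd5, Ctla4, Pdcd1, Tigit and Tnfrsf4, and 0 higher, beside 1.86% of all genes. Of these 5, Pdcd1, Tigit and Tnfrsf4 were under 50 CPM in the members of at least 1 library. Pdcd1, encoding PD-1, was at 23.1 against 108 CPM in WT and at 53.6 against 190 CPM in dKO. Of 7 measured genes on the regulatory T cell list, which shares Ctla4, Tigit and Tnfrsf4 with the checkpoint list, 4 were lower and 0 higher. These stand beside 1.86% of all genes, and Areg, Tigit and Tnfrsf4 were under 50 CPM in the members of at least 1 library. Foxp3 UMIs were found in 8.27% of WT and 34.6% of dKO comparison cells. Without those cells, 43 genes were over 2-fold higher and 44 lower in both libraries. Further genes at the lower end were Cpm, encoding carboxypeptidase M, the chemokine receptor gene Ccr8, Fam169b, and Lyz2, a myeloid lysozyme gene.

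Cd4 itself was low in the members. It was at 52.0 CPM (23.8 to 98.7) against 244 CPM in WT, from 9 UMIs in 8 cells, and at 254 CPM (180 to 349) against 750 CPM in dKO, from 38 UMIs in 22 cells. After thinning to 1000 UMIs, Cd4 had a UMI in 2 of 56 WT members (3.57%, 0.435 to 12.3) and 12 of 61 dKO members (19.7%, 10.6 to 31.8), against 21.5% and 53.7% of comparison cells. Before thinning these were 14.0% and 36.1% of members and 45.7% and 74.9% of comparison cells. In the myeloid-rich cells without a contig, the shares before thinning were 29.0% and 48.1%, but Cd4 is also transcribed by plasmacytoid dendritic and some myeloid cells in mice, so these are no background for it.

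The receptor machinery was otherwise present. Of 11 measured genes of the T cell receptor complex, Cd4 and Cd5 were over 2-fold lower in both libraries, beside 1.86% of all genes, and 0 were higher, with medians of -0.16 and -0.62. Cd3e, a chain of CD3, had a UMI in 46 of 57 WT members (80.7%) and 50 of 61 dKO members (82.0%), against 84.7% and 86.7% of comparison cells. Cd5, an inhibitory coreceptor whose level follows receptor signal strength in developing T cells, was at 173 against 459 CPM and at 141 against 426 CPM.

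Of 14 measured genes of the Nr4a family and other receptor-induced genes, Jun was over 2-fold higher in both libraries and Nr4a2 was lower, beside 1.45% and 1.86% of all genes. Jun, a subunit of the AP-1 factor, was at 1288 against 428 CPM and at 857 against 313 CPM. Nr4a1, an orphan nuclear receptor gene induced by receptor signals, was at 433 CPM (341 to 543) against 734 CPM in WT and at 1225 CPM (1054 to 1416) against 1842 CPM in dKO. Nr4a2 was at 80.9 CPM (44.2 to 136) against 188 CPM and at 167 CPM (108 to 247) against 375 CPM. Nr4a3, the family member that was not targeted, was at 272 against 299 CPM and at 201 against 269 CPM. Nr4a1 and Nr4a2 were lower in members than in comparison cells in both libraries, by less than 2-fold for Nr4a1. With the 26 WT members whose invariant contig had at least 3 UMIs, the WT log2 ratio of Nr4a1 was -0.28, and it was -0.76 with all 57.

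Of 11 measured genes of tissue retention and homing, 0 passed 2-fold in both libraries, with medians of -0.21 and -0.04. This stands beside 1.45% higher and 1.86% lower of all genes, so the count is no result about the list. Cxcr6, encoding the receptor that holds iNKT cells in liver sinusoids, was at 537 CPM (434 to 658) against 337 CPM and at 522 CPM (413 to 652) against 290 CPM. It was found in 43 of 57 and 42 of 61 members. Of 9 measured genes of recirculation and quiescence, Satb1 was over 2-fold higher and S1pr1 over 2-fold lower in both libraries. This stands beside 1.45% and 1.86% of all genes, with list medians of -0.01 and 0.06. S1pr1, the receptor used to leave tissues, was at 57.8 CPM (27.7 to 106) against 171 CPM in WT. In dKO it was at 33.5 CPM (10.9 to 78.1) against 84.3 CPM, so it reached the 50 CPM minimum there only through the comparison cells. Satb1, a chromatin organiser on the recirculation and quiescence list, was higher, at 607 against 285 CPM and 676 against 135 CPM. Klf2, which drives S1pr1, had log2 ratios of -0.54 (-0.86 to -0.24) and -0.43 (-0.83 to -0.05).

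Of 8 measured cell cycle genes, 3 were over 2-fold lower in both libraries, beside 1.86% of all genes, and 0 higher. They were Mki67, Pclaf and Top2a, of which Pclaf and Top2a were under 50 CPM in the members of at least 1 library. Mki67, a proliferation antigen gene, was at 98.2 against 233 CPM and at 60.2 against 174 CPM, and had UMIs in 3 WT and 2 dKO members.

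**Figure D4:**
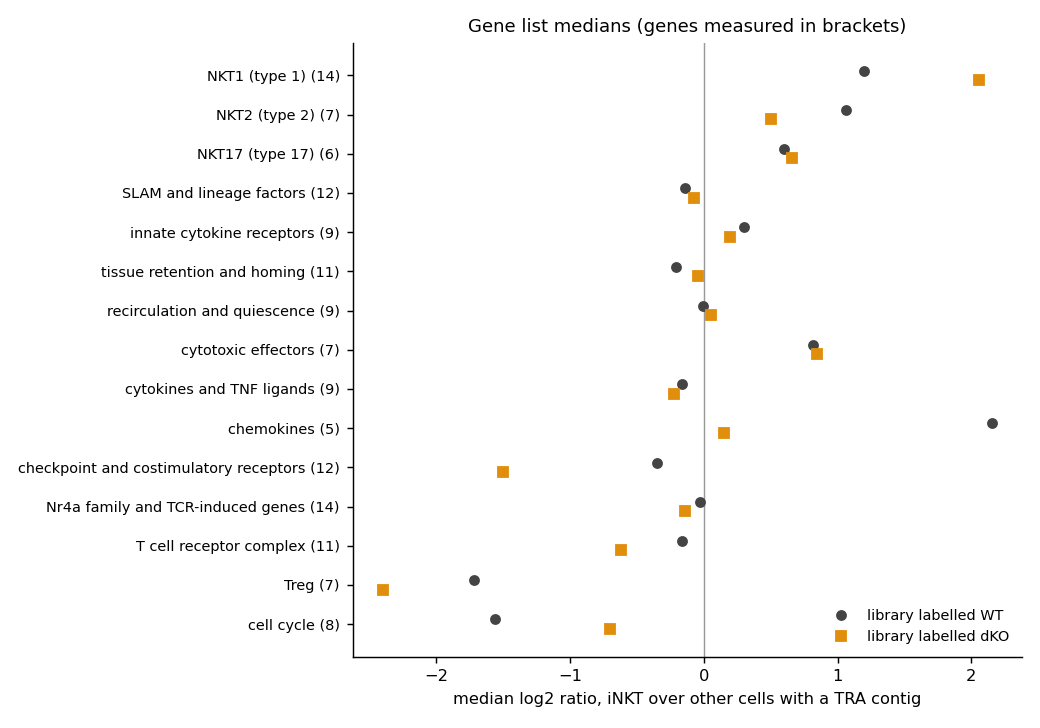
Median log2 ratio of CPM in members over other cells with a TRA contig (x axis) for each gene list with at least 5 measured genes (y axis, number of measured genes in brackets), in the library labelled WT (circles) and the library labelled dKO (squares). The NKT1 list lies at 1.20 and 2.06, and the regulatory T cell list at -1.72 and -2.40.

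Within the members, the libraries were compared gene by gene, beside the same ratio in the comparison cells. Of 3194 genes with a mean of at least 50 CPM over both libraries, 146 (4.57%) were over 2-fold higher and 222 (6.95%) over 2-fold lower in the library labelled dKO. Of these, 86 and 112 had a counting interval that left out no difference, each interval being for 1 gene and not adjusted over genes. The median log2 ratio was 0.01 in members and -0.01 in comparison cells. Of the 146 higher genes, 109 were also higher in the comparison cells, 21 of them over 2-fold, and 2 were over 2-fold lower there. Of the 222 lower genes, 165 were also lower, 34 of them over 2-fold, and 3 were over 2-fold higher. The median over the called genes was 1.30 in members and 0.23 in comparison cells for the higher genes, and -1.29 and -0.22 for the lower ones.

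The largest differences with at least 10 UMIs in both libraries went in the same direction in the comparison cells for 17 of the 19 genes described here. Nr4a1 was higher in dKO members by a log2 ratio of 1.50 (1.10 to 1.91), and by 1.33 (1.28 to 1.37) in comparison cells. Nr4a2 was higher by 1.05 (0.05 to 2.11), and by a ratio between 0.91 and 1.09 in comparison cells. With invariant contigs of at least 3 UMIs, the ratio of Nr4a1 in members was 0.85. Nr4a3 had log2 ratios of -0.44 (-1.15 to 0.26) and -0.15 (-0.24 to -0.07).

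Ccl5, encoding the chemokine RANTES, was at 1306 CPM in WT members and 3307 CPM in dKO members, a log2 ratio of 1.34 (1.11 to 1.57) beside 1.94 in comparison cells. Plac8 had a ratio of 1.30 (0.79 to 1.83) beside 1.16. Tyrobp, encoding the adaptor DAP12 of NK and myeloid cells, had a ratio of 1.55 (0.93 to 2.21) beside 1.33, with its UMIs in 8 members of each library. H2-Eb1, an MHC class II gene, had a ratio of 1.45 (0.51 to 2.47) beside 1.26. Grn, encoding progranulin, had a ratio of 1.43 (0.41 to 2.55) beside 1.17, and of -1.93 without the cells that carried plasmacytoid or myeloid UMIs. Slc50a1, Cstb, Capns1 and Atxn7l3b had ratios of 1.65, 1.45, 1.45 and 1.40 in members and of 0.38, 0.52, 0.24 and 0.31 in comparison cells.

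Lower in dKO members were Cdk8, Lars2 and Cmss1, with log2 ratios of -1.91, -1.84 and -1.81 beside -1.80, -1.47 and -1.67 in comparison cells. Hsph1, encoding a heat shock protein, had a ratio of -1.61 (-2.20 to -1.05) beside -1.36. Il31ra, Filip1l and Gphn were lower by -1.70, -1.52 and -1.52 beside -1.56, -1.84 and -0.63. Filip1l, at chr16:57353093-57573126 of the plus strand, lies within Cmss1, at chr16:57302000-57606864 of the minus strand. Whether the UMIs of these overlapping genes have separate sources was not tested. The ratio of Il31ra was -0.05 with invariant contigs of at least 3 UMIs. Klk1 and Ccl3 differed in direction. Klk1, a gene of the plasmacytoid dendritic list, had a ratio of -1.79 (-2.95 to -0.76) in members and 1.05 (0.88 to 1.23) in comparison cells, and its 40 WT UMIs lay in 4 members. Ccl3, encoding the chemokine MIP-1α, had ratios of -1.58 (-2.69 to -0.58) and 1.04 (0.87 to 1.21), and its 38 WT UMIs lay in 3 members.

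**Figure D5:**
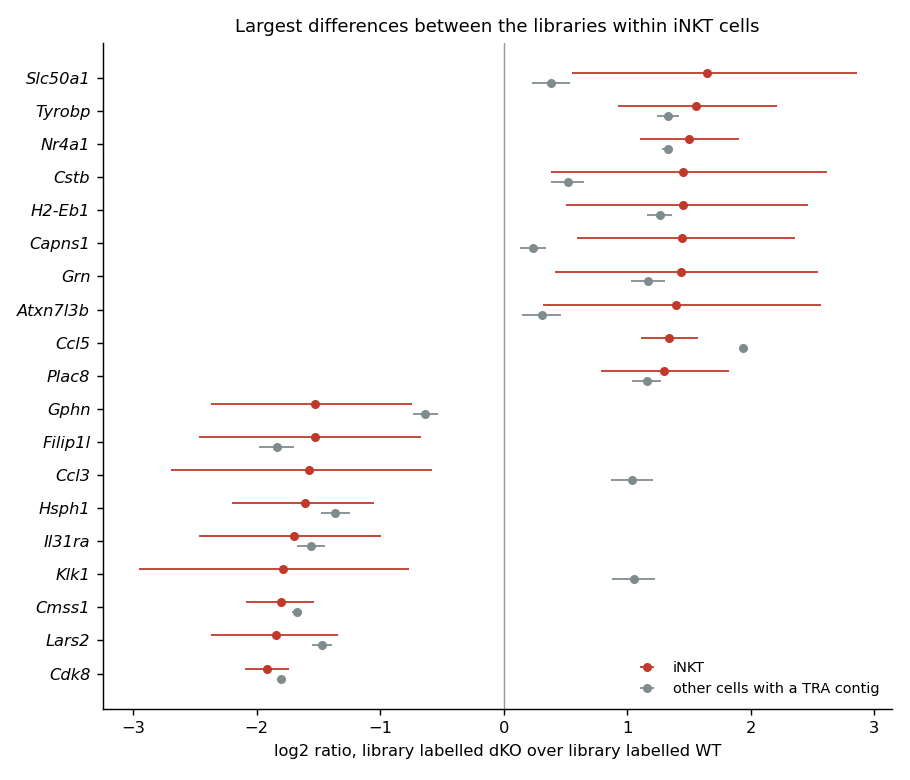
Log2 ratio of CPM, library labelled dKO over library labelled WT (x axis), for 10 genes at the upper and 9 at the lower end in members, shown for members (red) and other cells with a TRA contig (grey); bars are exact 95% counting intervals. For 17 of the 19 genes both points lie on the same side of 0; Klk1 and Ccl3 are the others.

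Other genes described above were also compared between the libraries. Zbtb16 had a log2 ratio of -0.62 (-1.35 to 0.09), Xcl1 of -0.37 (-0.78 to 0.03), Ifng of -0.33 (-0.90 to 0.23) and Il4 of 0.65 (-0.09 to 1.41), each with an interval that included no difference. In comparison cells Xcl1, Ifng and Il4 were lower in dKO, by log2 ratios of -1.88, -2.03 and -2.04. Klrb1c was higher in dKO members, with a ratio of 1.36 (0.16 to 2.68). Cd4 was higher by 2.29 (1.22 to 3.52) in members and by 1.62 (1.54 to 1.69) in comparison cells. Ctla4 and Tnfrsf4 were higher by 1.27 (0.22 to 2.40) and 2.88 (1.11 to 5.28) in members and by 1.82 and 2.28 in comparison cells. Of 16 measured NKT1 genes, Ccl5 and Klrb1c were over 2-fold higher and Slamf7 lower, beside 4.57% and 6.95% of all genes. Of 7 measured NKT2 genes, Plac8 was higher and Tmem64 lower, and of 5 measured NKT17 genes 0 passed 2-fold. Counts this small near those shares are no result about the lists.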

How the data were processed

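The 4 samples were 1 gene expression and 1 T cell receptor library for each genotype. The authors deposited UMI counts per gene and cell and tables of assembled receptor contigs, with UMI counts per contig, made with Cell Ranger (7.0.1 in the matrix header) on mm10 per the labels. Cells with over 200 genes and under 5% mitochondrial UMIs were kept and matched to contigs by barcode within a genotype. No doublet caller was run. UMIs were summed over cells (Python 3.11.15, numpy 2.4.6, scipy 1.17.1), and Poisson, Clopper-Pearson and conditional binomial 95% intervals were computed, with Newcombe's for the difference of shares. Cells were thinned to 1000 UMIs for shares of cells with a UMI. A count of 0 was taken to allow 3 counts. Genes with a mean of at least 50 CPM were compared and called past 2-fold. No p-value was computed, since there was 1 library per group. edgeR 4.0.16 gave TMM factors as an alternative. Named genes were those of fixed lists at 50 CPM or more, defining genes, and the 10 at each end of each comparison with at least 10 UMIs. Values of 2 of these genes are not reported here. The members and lists were chosen with earlier results of these data known. Calls were tested on simulated data.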

Additional observations from a re-analysis of the deposited data

Results flagged for a closer look

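For 4 of the named genes the libraries differed by over 2-fold in iNKT cells and by over 2-fold in the opposite direction in the other cells with a TRA contig. There was 1 library per genotype and this difference between the cell groups was not tested. In iNKT cells the log2 ratio of dKO over WT was -1.58 for Ccl3, -1.79 for Klk1, 1.36 for Klrb1c and 1.28 for Klrc1. In the other cells it was 1.04, 1.05, -1.03 and -1.77. The 38 Ccl3 and 40 Klk1 UMIs of WT iNKT cells lay in 3 and 4 cells.

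Cst3, a cysteine protease inhibitor gene of myeloid and dendritic cells, was higher in iNKT than in other cells in WT, by a log2 ratio of 0.54, and lower in dKO, by -1.02. This difference between the libraries was not tested.

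Cells without any receptor contig, which entered no comparison of levels, also held Zbtb16 UMIs: 110 of 6715 such cells in WT and 104 of 12565 in dKO. Their receptor is unknown.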

How the results depend on the processing

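No paired analysis was possible because the labels give 1 library per genotype, and leaving out a replicate was not possible for the same reason. Every log2 ratio of the 10 highest and 10 lowest genes of iNKT over other cells kept its direction under each alternative. Their ratios stayed past 2-fold except that of Lyz2, which was -0.62 in dKO without cells carrying at least 2 plasmacytoid or myeloid UMIs, an alternative added after the data were seen and partly built on Lyz2 itself. That alternative gave a log2 ratio of -1.93 for Grn (dKO over WT), 5.85 for Zbtb16 in WT and 2.77 for Xcl1 in WT. Among the genes at both ends of dKO over WT, Nr4a1, Il31ra and Gphn each went under 2-fold in 1 alternative.

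The iNKT share was 3.41% in WT and 3.26% in dKO with 1 cell per clonotype, since the other cells were more clonal, and 1.03% in WT and 1.47% in dKO with invariant contigs of at least 3 UMIs, which turned the order of the libraries. With those contigs, 228 genes were over 2-fold higher and 362 lower in dKO iNKT cells, fewer cells being summed, and the Xcl1 ratio in WT was 2.58. The Xcl1 ratio was 2.61 in WT and 4.16 in dKO with 1 TRA and at most 1 TRB chain, 3.28 in dKO without Foxp3-positive other cells and 4.38 in dKO as a mean over cells. The cause was not tested for these.

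Counts of genes followed the expression minimum. At 25 CPM, 89 genes were higher and 113 lower in iNKT cells in both libraries, and 446 higher and 578 lower in dKO. At 100 CPM these were 23, 23, 44 and 56. With any UMI they were 346, 247, 666 and 1024. Thinning to 2000 UMIs left 36 WT and 32 dKO members, 21 and 29 being shallower. Of those left, Zbtb16 was found in 50% in WT and 18.8% in dKO, Xcl1 in 55.6% in WT and Klrb1c in 28.1% in dKO. Few UMIs per gene in the iNKT cells limit every ratio.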
